A study of Homo sapiens with 30 samples.

Results

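The 43 genes described here are interferon-stimulated genes, a set of antiviral and immune genes that cells switch on when interferon reaches them. They were chosen by symbol from a list of well-known members of this set, and all 43 were found among the 54300 gene symbols of the count table and kept by the filter on low counts, which left 21554 symbols for testing. Transcripts were counted in Jurkat E6-1, an established human line of leukaemic T cells, whose cells were either unedited (WT) or knocked out for isoform 1 of SLAMF6 (KO), a lymphocyte receptor of the SLAM family. Cells were unstimulated (0 h) or stimulated for 6, 12, 24 or 36 h, giving 10 groups with 3 libraries in each. The labels give the times without a unit, and hours were taken from the treatment protocol, which was written for a cytokine assay of 48 h and names 200 ng/ml PMA with 300 ng/ml ionomycin. PMA activates protein kinase C and ionomycin raises calcium, which together stand in for T cell receptor signalling. That protocol calls the edited cells SLAMF6Δ17-65, while the series title speaks of overexpressed isoform 3, and the knockout named in the design was followed. How many edited clones were used, and whether libraries of a group came from separate cultures, is not given in the labels, so the spread behind each p-value is that between libraries and may be technical.

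Type I and type III interferons signal through JAK1 and TYK2 to a complex with STAT2 and IRF9 that binds the interferon-stimulated response element in the promoters of most of these genes. Interferon gamma, made by activated T cells, signals through JAK1 and JAK2 to a second element, the gamma-activated site, and it also induces IRF1, which can bind the first. The products sense viral RNA, block its translation or degrade it, trap virions at membranes, or attach ISG15 to proteins, and several feed back on the pathway itself.

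The core of the interferon-stimulated response element (GAAA, any 2 bases, GAAA, searched on both strands) was looked for in RefSeq promoters of GRCh38.p14, each of 300 bases from 250 before to 50 after the gene start. Of the 43 genes, 33 matched a promoter in that table, and 23 of these 33 (69.7%) held at least 1 core, against 1255 of 35116 promoters in the whole table (3.57%). For each of the 33 only the first promoter listed under its symbol was searched, while the 35116 are all promoters listed. The gamma-activated site (TTCNNNGAA, both strands, which reads the same on each) was in 8 of the 33 (24.2%) and in 7.66% of all promoters. A match is a description of the letters and not a measured binding site. Overlapping cores count as 1 stretch of capitals below, which is why BST2 shows 16 capitals in a row. The windows below belong to some of the genes whose levels differed most between times or genotypes. They lie upstream of the start, 5′ to 3′ on the gene's strand, with cores in capitals. Of the other genes that differed most, PARP9, XAF1 and SAMD9L held no core, and TRIM22, MX2 and OAS2 matched no promoter. IFIH1, IFI44L and DTX3L held cores that are not shown.

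BST2, chr19:17405725-17405780, minus strand: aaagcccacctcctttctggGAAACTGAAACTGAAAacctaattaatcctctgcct

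PARP14, chr3:122680790-122680838, plus strand: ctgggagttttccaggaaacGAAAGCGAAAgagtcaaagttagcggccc

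SAMD9, chr7:93118086-93118135, minus strand: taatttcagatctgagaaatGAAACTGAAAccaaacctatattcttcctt

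IFIT1, chr10:89392487-89392549, plus strand: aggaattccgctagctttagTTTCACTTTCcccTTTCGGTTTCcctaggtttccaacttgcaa

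IFITM1, chr11:313980-314029, plus strand: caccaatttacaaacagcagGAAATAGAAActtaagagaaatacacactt

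IFI27, chr14:94110608-94110670, plus strand: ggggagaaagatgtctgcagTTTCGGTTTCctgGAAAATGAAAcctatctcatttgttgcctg

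EPSTI1, chr13:42992262-42992311, minus strand: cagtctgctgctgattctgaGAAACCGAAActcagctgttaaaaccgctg

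RTP4, chr3:187368323-187368384, plus strand: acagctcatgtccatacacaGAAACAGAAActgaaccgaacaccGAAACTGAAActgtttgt

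The 23 genes with a core included 22 that were called higher than 0 h at some time in WT and 21 in KO, and the 10 matched genes without one included 9 in each genotype. Of all tested genes 28.9% were called higher than 0 h at some time in WT and 27.8% in KO. Of those with a core, 13 were called higher in KO than in WT at some time, as were 7 of the 10 without one, against 15.7% of all tested genes.

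The libraries held 5.64 M to 28.2 M counts in total (M for mega, median 20.5 M), and 3 libraries held under 10 M: replicate 2 of WT at 0 h, of KO at 0 h and of WT at 36 h. Each gene's level is given as CPM, its count per M counts of the library after TMM scaling. CPM values do not correct for transcript length and are compared within a gene only. SLAMF6 itself was at 19.0, 25.1 and 19.4 CPM in the 3 WT and 18.2, 21.0 and 18.6 CPM in the 3 KO libraries at 0 h, so the groups overlapped. Gene counts sum over isoforms and do not show the loss of 1 of them. T cell markers summed to between 5054 and 9635 CPM in every library. Libraries whose members stood apart were replicate 3 of WT at 24 h, with a median member 0.27 log2 above its group mean, and replicate 1 of WT at 24 h, 0.17 log2 below it. In replicate 2 of KO at 0 h, the smallest library, members scattered most around their group means, with an SD of 0.505 log2 against 0.138 to 0.362 in the other libraries, and this library enters every KO change from 0 h. Titles carry the letter A for WT and B for KO from 0 to 24 h and C for both at 36 h. What the letter marks is not stated, and at 0 to 24 h it cannot be told apart from the genotype. Both genotypes change letter between 24 and 36 h. Changes from 0 h to 36 h, and their differences between genotypes, therefore cannot be told apart from a change of letter. In bulk RNA, fewer cells making a transcript and less transcript per cell cannot be told apart.

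Of the interferon genes, only IFNG, the gene of interferon gamma, had enough counts to be tested. The other 20 type I and type III interferon genes in the table held between 6 and 31 counts in all over the 3 libraries of any group, with IFNB1 giving the most of any in each stimulated group. IFNG held 1 count in all WT libraries at 0 h and 2 in all KO libraries, so no fold is given against 0 h. At 6 h it was at 7.41, 4.90 and 8.10 CPM in WT and 50.6, 19.2 and 49.8 CPM in KO, and the groups did not overlap. It was called higher in KO at 6, 12, 24 and 36 h, with log2 differences from 1.84 to 2.74. At 12 h the 3 KO libraries spread widely, at 19.5, 5.05 and 4.32 CPM, against 1.30, 1.83 and 1.11 CPM in WT.

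The transcripts of several genes that carry interferon signals rose on stimulation. IRF9, the DNA-binding partner of STAT2, rose by 3.18 log2 at 6 h in WT and 3.30 in KO. Between the genotypes, IRF9 was called higher in KO at 0, 6 and 12 h. IRF1, a direct target of interferon gamma, was at 328, 317 and 324 CPM at 6 h in WT and 572, 638 and 599 CPM in KO, and was called higher in KO at every time after 0 h, by 0.75 to 1.07 log2. IRF7, which amplifies type I interferon, rose by 2.10 log2 in WT and 2.21 in KO at 12 h and was called between the genotypes at no time. STAT2 was called higher in KO at 0, 12 and 24 h by 0.44 to 0.48 log2. Of 11 tested genes of interferon receptors and their JAK and STAT partners, 2, 3, 5, 2 and 1 were called higher in KO and 1, 2, 2, 2 and 2 lower at 0, 6, 12, 24 and 36 h. Among all tested genes the shares were 2.96%, 5.21%, 6.07%, 4.97% and 6.95% higher and 3.11%, 4.76%, 5.52%, 4.76% and 6.52% lower. JAK2, a kinase of the interferon gamma receptor, was higher at 6, 12 and 24 h, and IFNGR2, a chain of that receptor, at 6 and 12 h. The lower calls were those of a pair of receptor genes: IFNAR2, a chain of the type I receptor, was called lower in KO at 6, 12, 24 and 36 h (log2 differences of -0.63 to -0.28), and IFNLR1, a chain of the type III receptor, at all 5 times (-3.63 to -1.93).

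**Figure D1:**
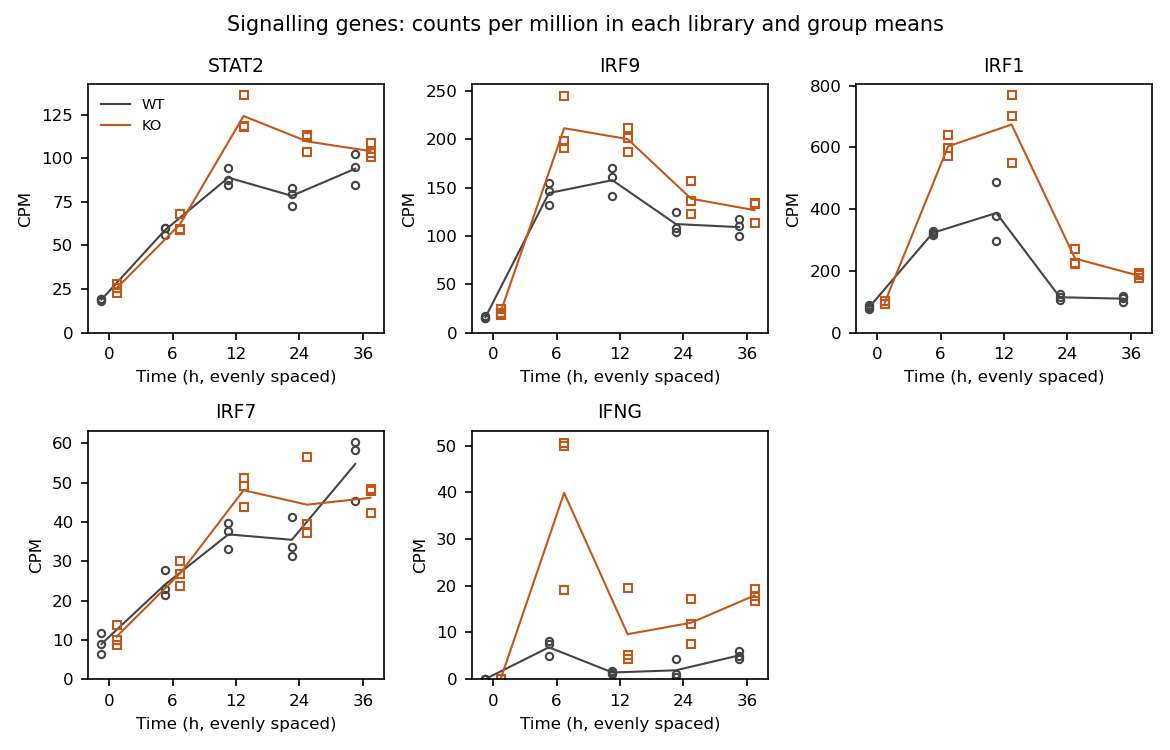
CPM of STAT2, IRF9, IRF1, IRF7 and IFNG in each library (WT circles, KO squares) with lines through the group means of 3 libraries; times are evenly spaced on the x axis and each y axis starts at 0. IRF1 and IFNG in KO sit above WT at 6, 12, 24 and 36 h, while IRF7 overlaps between the genotypes at every time but 12 h.

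On stimulation, most of the 43 genes rose. In WT, 17 were called higher than at 0 h at 6 h, 34 at 12 h, 34 at 24 h and 37 at 36 h, and 3, 1, 3 and 1 were called lower. Among all genes tested the shares called higher were 11.8%, 14.8%, 17.3% and 20.2%, and lower 10.5%, 15.6%, 17.0% and 19.0%, so at 36 h 86% of the members were higher against 20.2% of all genes. The median log2 change of the members was 0.47, 1.20, 1.04 and 1.24 at these times, where the median over all tested genes was 0.03, 0.12, 0.03 and 0.01, and the 6 h value fell to 0.31 without replicate 2 of WT at 0 h. In KO, 22, 32, 31 and 35 members were called higher and 4, 0, 2 and 1 lower, with medians of 0.39, 1.11, 0.98 and 1.15. The shares of all genes in KO were 14.0%, 14.1%, 16.1% and 18.6% higher and 13.2%, 13.7%, 16.7% and 18.0% lower. The 4 comparisons within a genotype share its 0 h libraries, and the one at 36 h also crosses the title letters. Called higher in both genotypes were 16 members at 6 h, 31 at 12 h, 29 at 24 h and 33 at 36 h, against 7.75%, 8.88%, 11.1% and 12.4% of all tested genes. Of all tested genes, 3.73% were called higher at all 4 later times in both, as were 15 members: ISG20, IFIT2, IFIT3, IFIT5, OAS3, DDX58, IFIH1, XAF1, SAMD9, SAMD9L, TRIM22, PARP9, PARP14, DTX3L and SP100. DHX58 was called at no time in either. Of the calls of these 15, DTX3L at 24 h in WT was lost without replicate 1 at 0 h or replicate 1 or 2 at 24 h, IFIH1 at 24 h in WT without replicate 1 at 0 h, and SAMD9 at 6 h in KO without replicate 2 or 3 at 6 h.

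**Figure D2:**
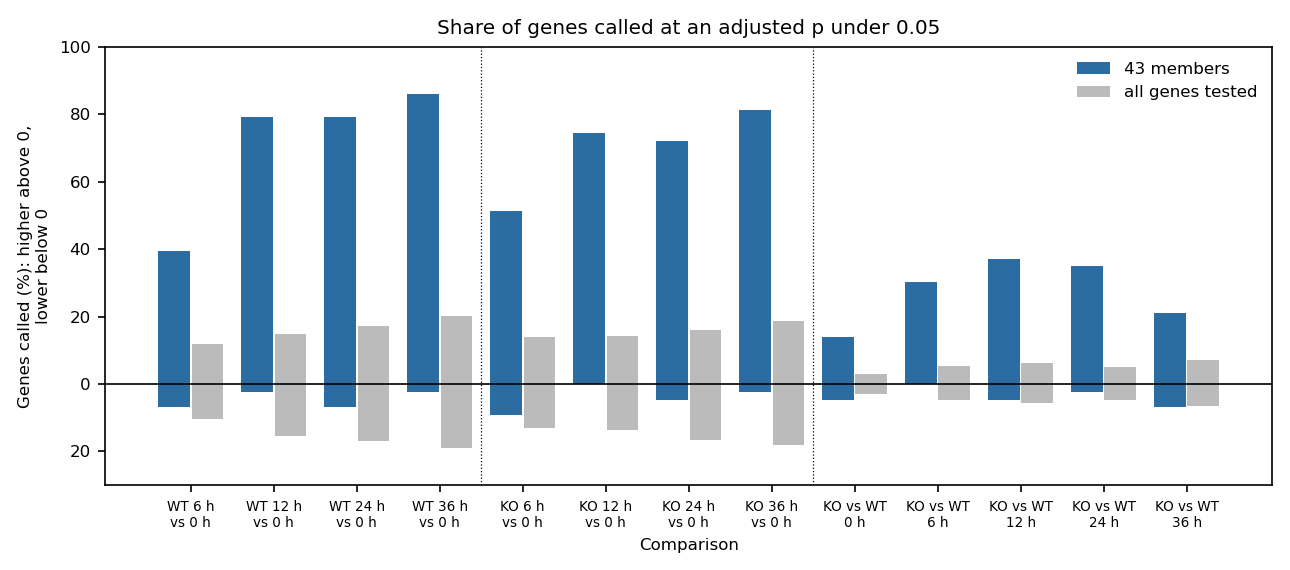
Percentage of the 43 members (blue) and of all 21554 tested genes (grey) called higher (above 0) or lower (below 0) in each comparison, at an adjusted p under 0.05. At 36 h in WT 86% of the members and 20.2% of all genes were called higher.

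Their time courses are described by the time of the highest group mean. That time was not tested against the others, and no such count was made for all genes. In WT, 22 members had their highest mean at 12 h and 16 at 36 h, with 2 at 24 h (IFI27 and DHX58), 1 at 6 h (ADAR) and 2 at 0 h (HERC5 and CMPK2). In KO, 26 were highest at 12 h, 12 at 36 h, 3 at 0 h (MX1, HERC5 and CMPK2), and 1 each at 6 h (IFIT5) and 24 h (MX2). From 12 to 24 h, a comparison added after the data were seen, 15 members fell and 5 rose in WT, where 7.25% and 7.60% of all genes did, and 18 fell and 5 rose in KO, where 8.20% and 6.28% did. The 12 that fell in both were CMPK2, DDX58, DTX3L, EPSTI1, HERC5, IFI35, OAS3, PARP14, PARP9, RSAD2, SAMD9L and SP100 (4.06% of all genes fell in both), and the 3 that rose in both were IFI27, IFITM2 and MX2 (3.25%). With any 1 library left out, 11 of the 15 falls in WT and 11 of the 18 in KO were kept. Of the 12 shared falls, SP100 in WT was lost without any 1 of the 6 libraries and in KO without replicate 3 at 12 h. IFI35 in WT was lost without replicate 3 at 12 h or 1 or 2 at 24 h, and CMPK2 in WT without replicate 1 at 12 or 24 h. In KO, HERC5 was lost without replicate 1 at 12 h or 2 or 3 at 24 h, and RSAD2 without replicate 3 at 12 h or 1 at 24 h. The rise of IFI27 in WT was lost without replicate 2 or 3 at either time.

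**Figure D3:**
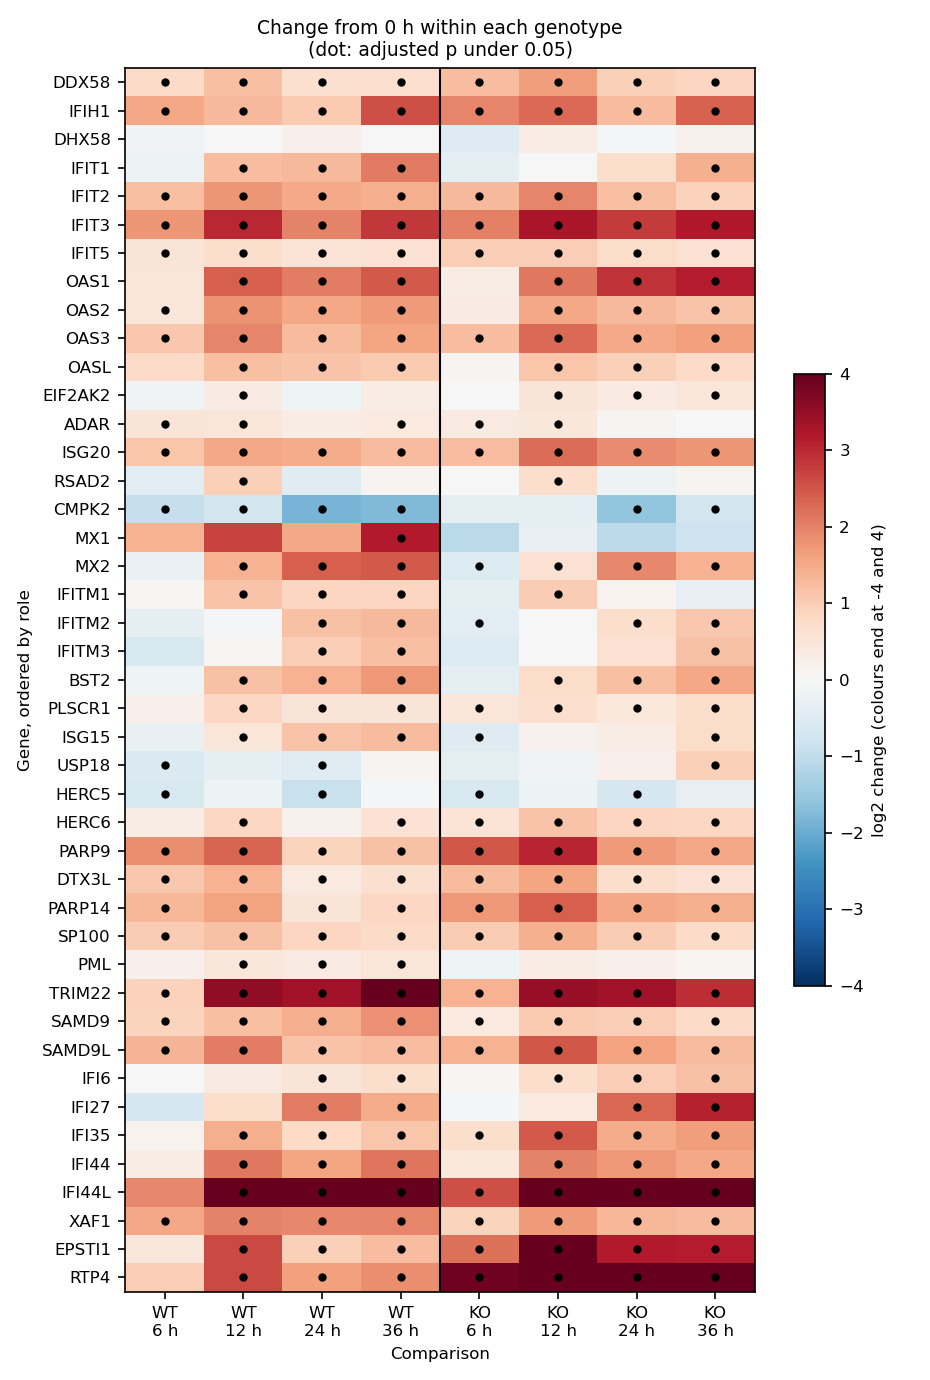
Log2 change from 0 h of the 43 members (rows, grouped by role) at 4 times in WT (left) and KO (right); colours end at -4 and 4 and a dot marks an adjusted p under 0.05. IFI44L, MX1 and, in KO, RTP4 rest on few counts at 0 h; most rows are red from 12 h on, and CMPK2 and HERC5 are blue.

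Between the genotypes, members were called higher in KO more often than lower at every time. KO was higher for 6 of the 43 at 0 h, 13 at 6 h, 16 at 12 h, 15 at 24 h and 9 at 36 h. It was lower for 2, 0, 2, 1 and 3. Of all genes, 2.96%, 5.21%, 6.07%, 4.97% and 6.95% were called higher in KO and 3.11%, 4.76%, 5.52%, 4.76% and 6.52% lower. At 12 h the members' 37.2% higher stood against 6.07% of all genes and their 4.65% lower against 5.52%, a share near that of all genes. The median member was 0.16, 0.25, 0.36, 0.41 and 0.20 log2 above WT at the 5 times, and the median of all tested genes lay between -0.0110 and -0.0021. Averaged over the 5 times, 24 members were higher and 3 lower in KO, against 15.3% and 15.3% of all genes. With DESeq2 size factors in place of TMM the higher share of all genes called in KO against WT moved from 48.8% to 39% at 0 h and from 52.4% to 39.1% at 12 h, while the members split 5 higher to 2 lower and 14 to 2.

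Markers of T cells and of other cell types and the mitochondrial share moved with genotype too. Of 13 tested T cell markers, 0, 2, 1, 1 and 3 were called higher in KO at 0, 6, 12, 24 and 36 h. Called lower were 2, 4, 4, 5 and 6, and the shares of all genes are those given above. The 9 monocyte markers summed to 15.2 to 16.4 CPM in WT and 26.1 to 38.4 CPM in KO at 6 h, and to 10.6 to 17.5 and 30.2 to 46.3 CPM at 12 h. Most of this was CD68, called higher in KO at 6, 12, 24 and 36 h. The other 8 together stayed between 2.08 and 5.77 CPM in WT and 1.23 and 5.71 CPM in KO. Of these, LYZ was at 0 in KO from 0 to 24 h. Those 8 were lower in KO without overlap at 0 h (1.233 to 1.998 against 2.2 to 3.341 CPM in WT). At 6 h they were higher without overlap (3.997 to 5.712 against 2.084 to 3.171 CPM). They were also higher at 36 h (3.876 to 5.501 against 2.357 to 3.675 CPM), and at 12 and 24 h they overlapped. The 5 plasmacytoid dendritic cell markers summed to 45.3 to 47.7 CPM in WT and 70.4 to 80.8 CPM in KO at 6 h, and to 23.8 to 27.0 and 43.0 to 61.3 CPM at 12 h. NRP1 made up most of this and was called lower in KO at 0 h and higher at the other 4 times. The other 4 markers together stayed between 2.32 and 7.30 CPM. They were lower in KO without overlap at 6 h (2.32 to 4.24 against 4.28 to 6.26 CPM in WT). The same held at 12 h (2.98 to 3.55 against 4.89 to 5.94 CPM), and at 0, 24 and 36 h they overlapped. The 7 markers of adherent lines summed to 577 to 729 CPM in WT and 724 to 1298 CPM in KO at 12 h, and to 110.0 to 138 and 68.9 to 82.2 CPM at 36 h. Nearly all of this was VIM, and the other 6 together reached at most 6.22 CPM. Those 6 were higher in KO without overlap at 0 h (4.675 to 5.813 against 1.67 to 3.593 CPM in WT). They were also higher at 36 h (2.83 to 3.14 against 1.37 to 1.86 CPM). At 12 h they were lower (1.40 to 2.14 against 3.26 to 4.76 CPM), and at 6 and 24 h they overlapped. B cell markers, mostly CD79A, summed to 10.4 to 33.7 CPM over all libraries. Their sum was lower in KO without overlap at 0 h (21.7 to 31.6 against 32.2 to 33.7 CPM in WT) and 6 h (16.8 to 17.6 against 21.9 to 24.2 CPM). It was higher without overlap at 36 h (26.4 to 27.2 against 22.0 to 23.4 CPM), and the genotypes overlapped at 12 and 24 h. Mitochondrial genes gave 5.96% to 6.01% of counts in WT and 7.19% to 7.85% in KO at 0 h, 8.13% to 9.33% and 6.37% to 7.33% at 24 h, and 8.10% to 9.35% and 4.49% to 5.59% at 36 h, without overlap, while the genotypes overlapped at 6 and 12 h. Their part in the genotype differences of the members was not tested.

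Of the 59 higher calls at single times, 33 were kept when any 1 library of the groups compared was left out. They numbered 3 of the 6 higher at 0 h (BST2, OAS2 and TRIM22) and 6 of the 13 at 6 h (BST2, DTX3L, IFIT5, OAS2, PARP9 and TRIM22). At 12 h 11 of the 16 were kept (BST2, DTX3L, IFI35, IFIH1, ISG20, OAS2, PARP14, PARP9, SAMD9L, SP100 and TRIM22), and at 24 h 10 of the 15 (the same without IFI35, IFIH1 and ISG20 and with EIF2AK2 and HERC6). At 36 h 3 of the 9 were kept, BST2, IFI27 and USP18. Of the lower calls EPSTI1 was kept at 0 h, IFIT1 and MX2 at 12 h, and IFITM1, MX2 and SAMD9 at 36 h. The count of members called moved by over 1.5 times at 0 h, from 8 to 5 without replicate 1 or 2 of WT and to 4 without replicate 1 or 3 of KO. At 6 h it moved from 13 to 6 without replicate 2 or 3 of WT and to 8 without replicate 1 of KO, and at 36 h from 12 to 7 without replicate 2 of WT.

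**Figure D4:**
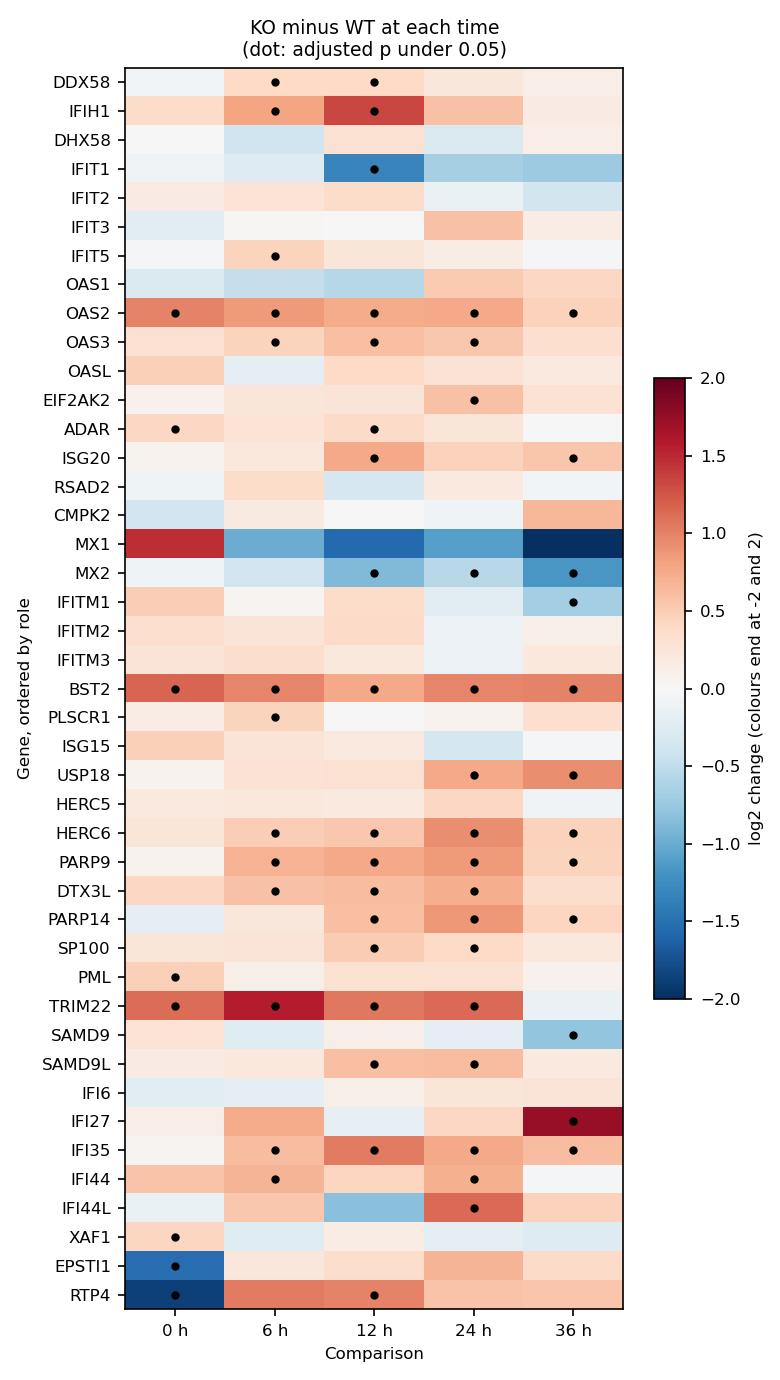
KO minus WT log2 difference of the 43 members (rows, grouped by role) at the 5 times; colours end at -2 and 2 and a dot marks an adjusted p under 0.05. BST2 and OAS2 are dotted red at all 5 times, MX2 is dotted blue at 12, 24 and 36 h, and MX1 rests on few counts.

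Among the RNA sensors, IFIH1, which encodes MDA5, a sensor of long double-stranded RNA (chr2:162267079-162318703, coordinates of genes from GENCODE 29 on GRCh38), was at 2.33, 2.68 and 5.68 CPM at 0 h, 8.77, 8.03 and 10.7 CPM at 12 h and 17.3, 23.2 and 26.3 CPM at 36 h in WT. In KO it was at 4.17, 3.52 and 6.13, then 19.8, 25.4 and 24.0 and 28.2, 23.3 and 23.1 CPM at these times. The genotypes were apart at 12 h and overlapped at 36 h. The difference at 12 h was 1.33 (SE 0.26, adjusted p = 0.000628). A smaller difference at 6 h, 0.79 (SE 0.26, adjusted p = 0.042), was lost without replicate 2 or 3 of WT or replicate 1 or 2 of KO, with adjusted p up to 0.313. DDX58, which encodes RIG-I, a sensor of RNA with triphosphate ends, rose by 1.19 log2 at 12 h in WT and 1.66 in KO. DHX58, which encodes LGP2, a helper of both sensors without a signalling domain, stayed between 6.73 and 12.3 CPM in WT and 5.90 and 14.3 CPM in KO.

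The IFIT proteins bind viral RNA and block its translation. IFIT3 rose most of the 4 at 12 h in the data, by 3.02 log2 in WT and 3.25 in KO, and IFIT2 by 1.76 and 1.97. IFIT5 rose by under 1 log2 at every time in both genotypes. IFIT1, which binds RNA whose cap lacks a methyl mark (chr10:89392546-89406486), was the exception between the genotypes. In WT it was at 4.51, 6.17 and 3.15 CPM at 0 h, 12.4, 11.1 and 7.49 at 12 h and 18.0, 21.1 and 17.2 at 36 h. In KO it was at 2.98, 6.69 and 3.95, 5.06, 3.71 and 3.56 and 11.5, 10.0 and 12.3 CPM. At 12 h all KO libraries were below all WT libraries, with KO minus WT -1.32 (SE 0.34, adjusted p = 0.00969), and in KO the change from 0 h at that time was -0.02 log2 (adjusted p = 0.981). IFIT1, IFIT2 and IFIT3 lie within LIPA on the opposite strand in the annotation, and whether counting used strand is not given in the sources used here.

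The OAS genes encode enzymes that make the oligoadenylates that activate RNase L, except OASL, which lacks that activity. OAS2 (chr12:112978395-113011723) was higher in KO already without stimulation, at 36.6, 35.2 and 41.9 CPM against 19.1, 14.2 and 22.7 CPM in WT. At 12 h it was at 66.2, 67.8 and 66.2 CPM in WT and 97.4, 123 and 116 CPM in KO, and at 36 h at 64.4, 59.9 and 61.0 and 89.1, 85.9 and 79.2 CPM. The libraries of the genotypes did not overlap at these times. KO minus WT was 1.00 (SE 0.14, adjusted p = 8.06e-06) at 0 h and 0.75 (SE 0.13, adjusted p = 0.000117) at 12 h. It was 0.45 (SE 0.13, adjusted p = 0.0148) at 36 h, a call lost without replicate 2 or 3 of WT or replicate 1 of KO (adjusted p up to 0.07). The change from 0 h was 1.81 log2 at 12 h in WT and 1.55 in KO, and the difference of changes was -0.25 (SE 0.19, adjusted p = 0.622). OAS3, the family member most tied to RNase L activation, was called higher in KO at 6, 12 and 24 h by 0.45 to 0.61 log2, calls that hung on single libraries: at 6 h on every one but replicate 2 of KO, at 12 h on replicate 2 of WT, and at 24 h on replicate 1 of WT and 3 of KO. OAS1 rose by 2.45 log2 at 36 h in WT and 3.15 in KO and was called between the genotypes at no time, nor was OASL.

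Of the other RNA and nucleotide enzymes, ISG20, an RNA exonuclease, was called higher at all 4 times in both genotypes, with 1.55 log2 at 12 h in WT and 2.24 in KO, and KO minus WT at 12 h was 0.75 (SE 0.17, adjusted p = 0.00249). EIF2AK2, which encodes the kinase PKR that halts translation on sensing double-stranded RNA, was called higher than 0 h at 12 h by 0.33 log2 in WT, a call lost without any 1 of the 6 libraries, and at 12, 24 and 36 h in KO by 0.34 to 0.51, with the 24 h call lost without replicate 3 of KO at 0 h or replicate 1 or 3 at 24 h. ADAR, an RNA editing enzyme, changed by at most 0.51 log2. It was called higher in KO at 0 and 12 h, calls each lost in 4 of 6 fits with a library left out. Averaged over the times ADAR was also called higher (adjusted p = 0.000234). RSAD2 (viperin, which makes a chain-terminating nucleotide) and CMPK2 (a mitochondrial nucleotide kinase) overlap on opposite strands of chromosome 2 by 829 bases. RSAD2 was called higher than 0 h at 12 h only, by 0.94 log2 in WT and 0.69 in KO, the latter lost without replicate 1 of KO at 0 h or 3 at 12 h. CMPK2 fell: it was at 15.3, 16.9 and 20.8 CPM at 0 h and 5.12, 5.06 and 5.37 CPM at 36 h in WT, a change of -1.77 (SE 0.28, adjusted p = 3.04e-06), and at 11.8, 12.2 and 16.4 and 3.51, 5.91 and 4.35 CPM at 0 and 24 h in KO, a change of -1.57 (SE 0.28, adjusted p = 2.69e-05).

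The MX genes encode dynamin-like GTPases, MX1 against a broad range of RNA viruses and MX2 against retroviruses among others. MX2 (chr21:41361943-41409390) was the member most often lower in KO. In WT it was at 9.52, 9.12 and 6.78 CPM at 0 h, 23.3, 23.7 and 19.0 at 12 h, 41.0, 39.1 and 52.7 at 24 h and 45.1, 41.1 and 51.4 at 36 h. In KO it was at 6.84, 5.28 and 10.4, 12.8, 11.5 and 11.6, 30.1, 29.9 and 30.1 and 17.4, 20.5 and 23.7 CPM. The 6 h levels were 7.09, 7.30 and 6.62 CPM in WT and 6.03, 5.42 and 4.68 CPM in KO. The genotypes overlapped at 0 h and were apart from 6 h on, and the difference at 6 h, -0.38 (SE 0.18, adjusted p = 0.218), did not pass the test. KO minus WT was -0.88 (SE 0.17, adjusted p = 0.000499) at 12 h and -1.16 (SE 0.16, adjusted p = 5.54e-06) at 36 h. At 24 h it was -0.56 (SE 0.16, adjusted p = 0.0226), a call lost without replicate 3 of WT or any 1 of the KO libraries (adjusted p up to 0.192). The rise from 0 h to 36 h was 2.45 log2 in WT and 1.39 in KO, a difference of -1.07 (SE 0.25, adjusted p = 0.00483) that was lost without replicate 3 of KO at 0 h (adjusted p = 0.0718). MX1, one of the best-known interferon targets, was near the detection limit, between 0 and 1.36 CPM in every library, and its call at 36 h in WT was lost without replicate 2 or 3 of WT at 0 h or replicate 1 at 36 h (adjusted p up to 0.148).

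Membrane restriction factors hinder the entry or release of viruses. BST2, which encodes tetherin, a protein that holds budding virions at the cell surface (chr19:17402939-17405648), was higher in KO at all 5 times. It was at 35.2, 29.9 and 35.5 CPM in WT and 77.5, 66.6 and 82.1 CPM in KO at 0 h. At 12 h it was at 84.8, 65.5 and 76.2 and 118, 124 and 141 CPM, and at 36 h at 120.4, 101 and 113 and 222, 214 and 231 CPM. No KO library overlapped a WT library at any time. KO minus WT was 1.17 (SE 0.16, adjusted p = 8.06e-06) at 0 h, 0.76 at 12 h and 0.99 (SE 0.15, adjusted p = 2.16e-05) at 36 h, and these calls were kept with any 1 library left out. The change from 0 h did not pass the test of a difference between genotypes, -0.18 (SE 0.22, adjusted p = 0.695) at 36 h. Its promoter, shown above, holds a run of overlapping cores.

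IFITM1, which blocks fusion of viral and cell membranes (chr11:313506-315272), rose at 12 h in both genotypes and was lower in KO at 36 h. It was at 19.0, 17.0 and 20.6 CPM at 0 h and 34.8, 31.1 and 37.3 CPM at 36 h in WT, and at 26.0, 24.7 and 29.4 and 20.9, 20.4 and 23.0 CPM in KO. At 36 h KO was below WT without overlap, by -0.69 (SE 0.16, adjusted p = 0.00305), and the changes from 0 h differed by -1.18 (SE 0.23, adjusted p = 0.000932). IFITM2 and IFITM3, near-identical relatives between which reads may be split, rose late, by 1.29 and 1.21 log2 at 36 h in WT and 1.07 and 1.16 in KO, and IFITM1 and IFITM2 overlap in the annotation. PLSCR1, a membrane protein that also enters the nucleus, rose by 0.84 log2 at 12 h in WT and 0.68 in KO.

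The ISG15 pathway moved in several directions. ISG15, the ubiquitin-like modifier itself, was at 131, 187 and 148 CPM at 0 h and 404, 371 and 336 CPM at 36 h in WT, and at 186, 275 and 189.8 and 394, 333 and 361 CPM in KO. Its rise at 36 h was called in both, 1.26 and 0.75 log2. USP18, the enzyme that removes ISG15 and also damps the type I receptor, was at 26.5, 25.4 and 28.4 CPM at 0 h and 32.3, 23.9 and 29.3 CPM at 36 h in WT, with no call at 36 h. In KO it was at 28.2, 24.7 and 30.9 and 59.7, 48.6 and 56.1 CPM, a rise of 0.96 (SE 0.16, adjusted p = 1.05e-05), and KO was above WT at 36 h without overlap. The difference of changes, 0.87 (SE 0.23, adjusted p = 0.0137), was lost without replicate 2 of WT at 36 h (adjusted p = 0.0554). HERC5, the main ligase for ISG15 in human cells, fell by 0.65 log2 at 6 h and 0.88 at 24 h in WT, and by 0.65 and 0.67 in KO. HERC6, its neighbour on chromosome 4, was called higher in KO at 6, 12, 24 and 36 h, and the difference at 24 h, 0.93 (SE 0.15, adjusted p = 8.39e-05), was kept with any 1 library left out. Its calls at 6 and 36 h were lost without any 1 library, and that at 12 h without replicate 3 of WT or KO.

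PARP9 and DTX3L form a complex that modifies chromatin, and PARP14 is an ADP-ribosyltransferase encoded near them on chromosome 3. PARP9 (chr3:122527924-122564577) was at 47.9, 48.2 and 49.0 CPM at 0 h, 189, 165 and 174 at 6 h, 206, 231 and 296 at 12 h and 78.2, 88.4 and 105 at 24 h in WT. In KO it was at 52.4, 49.0 and 50.1, 254, 336 and 266, 329, 456 and 459 and 145, 149 and 198 CPM. The genotypes overlapped at 0 h and every KO library was above every WT library at 6, 12 and 24 h. The difference was 0.69 (SE 0.14, adjusted p = 0.000765) at 6 h and 0.86 (SE 0.14, adjusted p = 7e-05) at 24 h. At 36 h it was 0.44 (adjusted p = 0.0303), a call lost without replicate 2 or 3 of WT or replicate 1 or 3 of KO (adjusted p up to 0.174). From 12 to 24 h PARP9 fell by 1.43 log2 in WT and 1.34 in KO.

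DTX3L, an E3 ubiquitin ligase, showed the same early rise, to 142, 118 and 152 CPM in WT and 221, 219 and 196 CPM in KO at 12 h from 49.1, 53.7 and 54.9 and 73.6, 77.2 and 61.1 CPM at 0 h. Averaged over the times it was 0.54 (SE 0.061, adjusted p = 1.31e-08) log2 above WT. PARP9 and DTX3L start next to each other on opposite strands and overlap by 339 bases, so without strand a part of their reads cannot be told apart. PARP14 (chr3:122680618-122730840) was at 49.9, 44.5 and 44.3 CPM in WT and 48.1, 40.0 and 34.5 CPM in KO at 0 h, where the genotypes overlapped. At 12 h it was at 133, 136 and 151 and 191, 224 and 224 CPM and at 24 h at 70.4, 67.2 and 60.4 and 121, 117 and 124 CPM, apart at both times. Its change from 0 h was larger in KO by 0.78 (SE 0.15, adjusted p = 0.00264) at 12 h and 1.05 (SE 0.15, adjusted p = 4.23e-05) at 24 h, both kept with any 1 library left out.

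SP100 and PML build nuclear bodies, and TRIM22 is a ubiquitin ligase active against several viruses. TRIM22 (chr11:5689689-5737089) was among the 4 members with the smallest p in each joint test and in the average genotype difference. In WT it was at 2.18, 1.61 and 2.20 CPM at 0 h, 4.60, 4.08 and 3.29 at 6 h, 25.2, 22.2 and 26.3 at 12 h, 17.6, 17.8 and 28.6 at 24 h and 36.8, 31.5 and 47.0 at 36 h. In KO it was at 4.80, 2.99 and 5.0, 11.7, 12.5 and 11.3, 51.8, 50.6 and 49.9, 43.0, 44.5 and 52.2 and 35.5, 31.7 and 38.6 CPM. KO was above WT without overlap from 0 to 24 h, and the genotypes overlapped at 36 h. KO minus WT was 1.12 (SE 0.22, adjusted p = 0.00124) at 0 h, 1.56 (SE 0.18, adjusted p = 2.15e-07) at 6 h and 1.13 (SE 0.16, adjusted p = 1.09e-05) at 24 h. At 36 h it was -0.13 (SE 0.16, adjusted p = 0.684). The change from 0 h to 36 h was 4.21 log2 in WT and 2.96 in KO, a difference of -1.25 (SE 0.27, adjusted p = 0.00295). TRIM22 overlaps TRIM5 on the opposite strand. SP100 rose by 1.16 log2 at 12 h in WT and 1.44 in KO. PML was called higher than 0 h by 0.37 to 0.47 log2 at 12, 24 and 36 h in WT and at no time in KO. The calls at 12 and 24 h were lost without replicate 1 of WT at 0 h, that at 24 h also without replicate 2 at 24 h, and its changes did not differ between genotypes by the test at any time. PML was called higher in KO at 0 h (adjusted p = 0.0164), a call lost in 3 of 6 fits with a library left out. It was also called higher averaged over the times (adjusted p = 0.000414).

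SAMD9 and SAMD9L are neighbouring genes on chromosome 7 whose products restrict poxviruses and translation. SAMD9 (chr7:93099513-93118023) climbed through the whole course in WT, from 33.9, 33.0 and 28.0 CPM at 0 h to 71.2, 71.0 and 74.8 at 12 h and 114, 109.7 and 112 at 36 h. In KO it went from 39.2, 37.0 and 37.4 to 73.3, 84.1 and 76.9 and 72.8, 60.8 and 60.0 CPM. KO libraries lay above WT at 0 h and below at 6 and 24 h without overlap, by differences that did not pass the test (adjusted p = 0.204, 0.205 and 0.326). At 36 h KO was below WT without overlap, by -0.80 (SE 0.12, adjusted p = 7.25e-06), and the changes from 0 h differed by -1.06 (SE 0.17, adjusted p = 6.09e-05). SAMD9L was highest at 12 h, at 38.5, 42.5 and 49.5 CPM in WT and 57.8, 68.3 and 72.4 CPM in KO, and KO minus WT there was 0.60 (SE 0.13, adjusted p = 0.00256). At 36 h the difference for SAMD9L was 0.19 (adjusted p = 0.429).

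The last group holds interferon-induced genes of varied or unsettled function. EPSTI1, named for its induction by contact between epithelium and stroma (chr13:42886388-42992271), was lower in KO without stimulation, at 1.83, 0.352 and 1.50 CPM against 4.04, 4.29 and 4.36 CPM in WT. Its 12 h level was 24.8, 24.7 and 29.5 CPM in WT and 28.0, 31.1 and 42.2 CPM in KO, where the groups overlapped. KO minus WT was -1.53 (SE 0.32, adjusted p = 0.00208) at 0 h and between 0.22 and 0.67 later with no call. Its change from 0 h was larger in KO, by 1.75 (SE 0.40, adjusted p = 0.0106) at 6 h and 2.20 (SE 0.40, adjusted p = 0.000788) at 24 h, and by 1.88 and 1.90 at 12 and 36 h. These 4 differences share the 0 h libraries of both genotypes and were kept with any 1 library left out. RTP4, a chaperone of membrane receptors (chr3:187368332-187372076), showed the same order at lower levels: 0.427, 0.805 and 0.807 CPM in WT and 0.170, 0 and 0.225 CPM in KO at 0 h, where KO held 10 counts in all. Its level at 12 h was 3.41, 5.67 and 3.10 CPM in WT and 6.13, 8.38 and 10.0 CPM in KO. KO minus WT at 0 h was -1.86 (SE 0.58, adjusted p = 0.0474), a call lost in 5 of 6 fits with a library left out, all but that without replicate 1 of WT (adjusted p up to 0.183). Its call at 12 h was lost without replicate 1 or 3 of WT or replicate 2 or 3 of KO (adjusted p up to 0.147). Fitted folds against so few counts depend on the prior count.

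XAF1, which promotes apoptosis (chr17:6755447-6775647), rose early in both genotypes, from 65.5, 60.9 and 53.7 CPM to 248, 237 and 226 CPM at 12 h in WT and from 84.2, 76.6 and 80.4 to 266, 256 and 269 CPM in KO. The log2 change was 1.98 in WT and 1.71 in KO, and at 36 h it was smaller in KO by -0.69 (SE 0.18, adjusted p = 0.0136). IFI44L, a cytoplasmic protein gene, was barely seen at 0 h, with 5 counts in WT and 4 in KO. At 36 h it was at 6.30, 7.96 and 10.5 CPM in WT and 11.1, 10.6 and 12.4 CPM in KO. Its difference at 24 h, 1.13 (SE 0.36, adjusted p = 0.0418), was lost without replicate 1 or 2 of WT or replicate 1 or 3 of KO (adjusted p up to 0.244). IFI27, a small membrane protein gene, was highest late. At 36 h it was at 1.86, 2.15 and 2.59 CPM in WT and 6.40, 7.66 and 8.05 CPM in KO, apart by 1.74 (SE 0.36, adjusted p = 0.000914).

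IFI35, a leucine zipper protein gene, was called higher in KO at 6, 12, 24 and 36 h. At 12 h it was at 39.4, 33.9 and 45.6 CPM in WT and 65.0, 84.9 and 93.9 CPM in KO, apart by 1.04 (SE 0.18, adjusted p = 0.000133), which was kept with any 1 library left out. Its call at 6 h was lost without any library but replicate 3 of KO, that at 24 h without replicate 1 of WT, and that at 36 h without replicate 2 or 3 of either genotype. IFI44 rose by 2.11 log2 at 12 h in WT and 1.98 in KO. IFI6, a mitochondrial protein gene that protects cells from apoptosis, rose late and less, by 0.70 and 1.17 at 36 h. IFI44 was called higher in KO at 6 h (0.68 log2) and 24 h (0.72), calls lost without replicate 2 or 3 of either genotype at 6 h, and without replicate 1 or 2 of WT or 2 of KO at 24 h. Called between the genotypes at no time were 13 members: ISG15, IFI6, IFIT2, IFIT3, IFITM2, IFITM3, MX1, OAS1, OASL, RSAD2, HERC5, DHX58 and CMPK2.

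**Figure D5:**
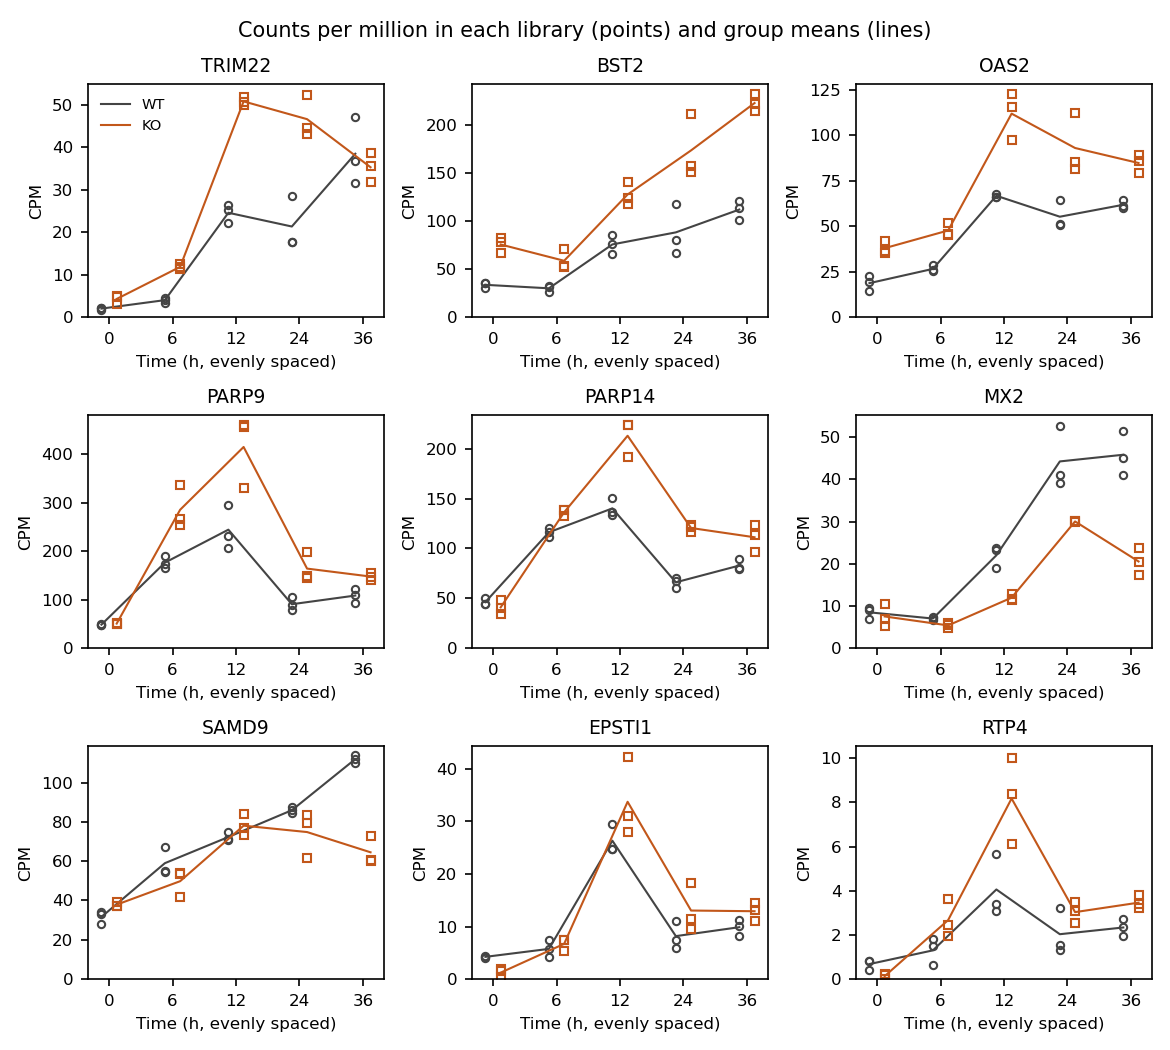
CPM of 9 members in each library (WT circles, KO squares) with lines through the means of 3 libraries; times are evenly spaced and each y axis starts at 0. BST2 and OAS2 in KO lie above WT at every time, TRIM22 does so to 24 h, MX2 in KO lies below WT from 6 h on, and SAMD9 does so at 6, 24 and 36 h, with a call at 36 h only.

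The difference of changes, which tests whether a member responded differently in KO, was called for few members. The change was larger in KO for 2, 4, 4 and 4 members at 6, 12, 24 and 36 h and smaller for 1, 0, 1 and 5. Of all genes 1.64%, 1.42%, 1.84% and 4.71% had a larger change in KO and 1.37%, 0.650%, 1.70% and 4.62% a smaller one. At 36 h the larger were USP18, PARP14, RTP4 and EPSTI1 and the smaller IFITM1, MX2, SAMD9, TRIM22 and XAF1. At 6 h the count of 3 went to 1 without replicate 3 of WT at 0 h, and at 12 h the count of 4 went to 2 without that library or replicate 1 of KO at 0 h. At 24 h the count of 5 went to 11 without replicate 3 of WT at 24 h. It went to 3 without replicate 3 of WT at 0 h, replicate 2 of WT at 24 h, replicate 2 or 3 of KO at 0 h, or replicate 2 or 3 of KO at 24 h.

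Genes better known as targets of interferon gamma were set beside the members. Of 16 tested from a list of guanylate-binding proteins, antigen-presentation genes, chemokines and others, 5 were called higher in KO at 0 h, 12 at 6 h, 12 at 12 h, 11 at 24 h and 9 at 36 h, and 0 lower at any time. Of all tested genes, 2.96%, 5.21%, 6.07%, 4.97% and 6.95% were called higher and 3.11%, 4.76%, 5.52%, 4.76% and 6.52% lower. GBP1 to GBP5, which attack vacuoles of pathogens, were each called higher in KO at 4 times, and TAP1, the peptide transporter of antigen presentation, at all 5. The median of the list was 0.35, 0.60, 0.76, 0.93 and 0.60 log2 above WT, against 0.16 to 0.41 for the members. Of 6 negative regulators, 0, 1, 2, 2 and 1 were called higher in KO and 1, 1, 0, 0 and 0 lower at the 5 times, beside the same shares of all genes. The 6 include USP18, itself a member, which was called higher in KO at 24 and 36 h. SOCS3, which restrains cytokine receptors, was higher at 12 and 24 h (1.72 and 1.20 log2), and PTPN6, a phosphatase of JAK kinases, was lower at 0 and 6 h (-0.65 and -0.62). The genotype comparisons at different times do not share libraries, but these lists were compiled with earlier results of these data known.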

How the data were processed

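RNA was sequenced from 30 libraries, and the authors deposited expected counts per gene symbol for each. Per the submitters' processing notes, the tools were cutadapt, STAR and DESeq2, and the builds hg19 and GRCh37. No counting program, annotation or strand setting was found in the labels. Values that were not whole (0.177%, in 195 symbols) were rounded. The test on counts used R 4.3.3 and edgeR 4.0.16: filterByExpr at a minimum count of 10, TMM scaling, and the quasi-likelihood F test fitted to all 30 libraries with 1 mean per group. Benjamini-Hochberg adjustment ran over the 21554 tested genes of a comparison, and genes with an adjusted p under 0.05 were called. SE is an approximate standard error, the size of the log2 difference divided by the square root of its F statistic. Comparisons were each time against 0 h within a genotype, KO against WT at each time and on average, and the difference of the changes from 0 h. The step from 12 to 24 h was added after the data were seen.

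Values in each library, for most members at selected times only, are given for members with the 4 smallest p in the joint tests over time. They are also given for the 4 smallest p in the average genotype difference and in the joint difference of changes. The 2 largest called differences in each direction between genotypes at each time were added to these. CMPK2, ISG15, IFI35 and USP18 were added after their values were seen. The members and lists were chosen with earlier results of these data known. Alternatives were DESeq2 1.42.0, its size factors, no filter, fits of the compared libraries only, leaving out libraries, and a replicate block. The procedure was tested on simulated data. A signalling gene outside the members is not reported here. Promoters are RefSeq on GRCh38.p14 and gene positions GENCODE 29 on GRCh38, matched by symbol, not the authors' build. Groups with 3 or fewer counts get no fold.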

Additional observations from a re-analysis of the deposited data

Results flagged for a closer look

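Members whose change from 0 h differed between KO and WT by the test of that difference itself (edgeR, adjusted p under 0.05) are given with KO change minus WT change in log2. Each compares 12 libraries, 3 in each of 4 groups, and differences of 1 genotype at several times share the 0 h libraries. At 6 h the difference was -0.66 (adjusted p = 0.0372) for XAF1, 2.89 (adjusted p = 0.0114) for RTP4 and 1.75 (adjusted p = 0.0106) for EPSTI1. At 12 h it was 0.98 (adjusted p = 0.0456) for IFI35, 0.78 (adjusted p = 0.00264) for PARP14, 2.86 (adjusted p = 0.0125) for RTP4 and 1.88 (adjusted p = 0.00474) for EPSTI1. At 24 h it was -0.84 (adjusted p = 0.0446) for ISG15, 0.79 (adjusted p = 0.0213) for PARP9, 1.05 (adjusted p = 4.23e-05) for PARP14, 2.42 (adjusted p = 0.0369) for RTP4 and 2.20 (adjusted p = 0.000788) for EPSTI1. At 36 h the change was smaller in KO for IFITM1, -1.18 (adjusted p = 0.000932), MX2, -1.07 (adjusted p = 0.00483), XAF1, -0.69 (adjusted p = 0.0136), SAMD9, -1.06 (adjusted p = 6.09e-05), and TRIM22, -1.25 (adjusted p = 0.00295). It was larger in KO at 36 h for USP18, 0.87 (adjusted p = 0.0137), PARP14, 0.60 (adjusted p = 0.0106), RTP4, 2.41 (adjusted p = 0.0194), and EPSTI1, 1.90 (adjusted p = 0.00201).

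For RTP4 and EPSTI1 the 0 h level was lower in KO, and RTP4 held 10 counts over the 3 KO libraries at 0 h. Without the 3 libraries under 10 M counts, 10 of the 21 differences missed the threshold: all 4 of RTP4, XAF1 at 6 h, IFI35 at 12 h, ISG15 and PARP9 at 24 h, and PARP14 and USP18 at 36 h. Those of EPSTI1 did not. The difference for ISG15 at 24 h was lost in 8 of 12 fits with a library left out, those for IFI35 at 12 h and RTP4 at 24 h in 9 of 12, and that for XAF1 at 6 h in 7 of 12. PARP9 at 24 h was lost in 3 of 12, without replicate 1 or 2 of WT or 3 of KO at 24 h. RTP4 at 12 and 36 h was lost without replicate 3 of WT or 1 of KO at 0 h, RTP4 at 6 h without that replicate of WT, MX2 at 36 h without replicate 3 of KO at 0 h, and USP18 at 36 h without replicate 2 of WT at 36 h. The other 11 were kept in every such fit. Groups of 3 libraries were too small for the check of single outlying samples.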

How the results depend on the processing

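Of 415 calls of a member in a comparison, none turned direction under any alternative run. The number lost was 2 with the DESeq2 Wald test, 6 with DESeq2 size factors, 12 without a filter on low counts, 25 of 386 with only the libraries of the groups compared in the fit, and 29 without the 3 libraries under 10 M counts. With each library left out in turn, 330 of the 415 were kept in every fit and 85 lost in at least 1. The cause of these losses was not tested, beyond the smaller number of libraries in the last 3 alternatives.

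Counts of members called that moved by over 1.5 times were those of the smaller comparisons. KO against WT at 24 h gave 9 in place of 16 with only the libraries compared, and at 0 h gave 5 in place of 8 without the libraries under 10 M counts. For the difference of changes from 0 h, the count at 6 h (3) became 6 with DESeq2, 5 with only the libraries compared and 1 without the libraries under 10 M counts. At 12 h (4) it became 7 without a filter on low counts and 2 without those libraries. At 24 h (5) it became 9 with DESeq2, 3 with only the libraries compared and 2 without the libraries under 10 M counts, and at 36 h (9) it became 14 with only the libraries compared. Leaving out 1 library moved the count between 4 and 6 for KO against WT at 0 h, between 6 and 11 at 6 h, and between 7 and 10 at 36 h. For the difference of changes it ranged from 1 to 3 at 6 h, from 2 to 6 at 12 h and from 3 to 11 at 24 h.

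Titles of WT and KO libraries share a number from 0 to 24 h. Same-numbered libraries' deviations correlated by -0.015 to 0.126, above the minimum of 0.1 in 1 of 12 pairs. By that rule the numbers were not taken as a pairing. Yet 9 of 12 libraries correlated best with their own number, so a pairing was not excluded. With that number as a replicate block, members called between the genotypes numbered 7, 12, 18 and 20 at 0, 6, 12 and 24 h, against 8, 13, 18 and 16 without it. At 36 h the titles share no number and no blocked fit was possible. Genes with few counts at 0 h, MX1, IFI44L and RTP4 among them, are limited by depth.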
